A study of Mus musculus with 3 samples.

Results

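The mouse 2′-5′-oligoadenylate synthetase (OAS) family was examined in RAW264.7 cells, a mouse macrophage line. The members were taken by gene name on the array and were Oas1a, Oas1b, Oas1c, Oas1g, Oas2, Oas3, Oasl1 and Oasl2. These 8 genes carried 13 of the 56605 probes and were 8 of the 36870 gene names. RAW264.7 macrophages were challenged with lipopolysaccharide (LPS), the bacterial cell wall component that activates Toll-like receptor 4 (TLR4), and RNA was taken 3 h later. Macrophages of the LPS group received LPS alone. Macrophages of the LOC1 group and of the LOC3 group were stimulated before LPS with Lactiplantibacillus plantarum LOC1 or LOC3, strains obtained from fresh tea leaves. The bacteria were present for 12 h by the sample labels and for 24 h by the methods, and the dose of LPS was given as 50 ng/mL in the methods and as 100 ng/mL in the results text. Each group had 1 one-colour array, so no SD between cultures, no test and no p-value could be given for any difference between groups. The array of unchallenged macrophages was not analysed here, and values against it were taken from the log2 ratios that the authors deposited.

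OAS enzymes bind double-stranded RNA and then join ATP into short chains of adenosines with 2′-5′ links, called 2-5A. 2-5A then acts as a signal that leads to the cutting of RNA in the cell, which halts the growth of many viruses. In macrophages, TLR4 leads to secretion of interferon-β, and the interferon receptor activates ISGF3, a transcription factor complex that includes Stat2 and Irf9 and binds the interferon-stimulated response element (ISRE) in the promoters of antiviral genes. OAS genes are well-known members of that group. The Oasl proteins carry ubiquitin-like domains after the OAS unit, and Oasl1 has no synthetase activity.

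The family lies in separate blocks of chromosome 5 in the RefSeq annotation of GRCm38.p6. Oasl2 (chr5:114896926-114912245) and Oasl1 (chr5:114923143-114937911) stand side by side. Oas2 (chr5:120730333-120749886) and Oas3 (chr5:120753098-120777684) begin the other block, which goes on with Oas1e, Oas1c, Oas1b, Oas1f, Oas1h, Oas1g, Oas1a and Oas1d. Only 94 bases separate the annotated ends of Oas1c (chr5:120800194-120812540) and Oas1b (chr5:120812635-120824163), which are read in opposite directions. Oas1b is annotated as a transcribed pseudogene in this reference. Oas1g (chr5:120876142-120887613) and Oas1a (chr5:120896256-120907544) are close copies read in the same direction.

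The RefSeq promoter windows, 250 bases before to 50 bases after a start site, were searched for the ISRE letters, GAAA, any 2 bases and GAAA again, and for the letters TTCNNNGAA of the interferon-γ activated site (GAS), on both strands. Windows were found for 6 of the 8 members. ISRE letters were present in 4 of these 6, those of Oas1a, Oas1g, Oas1c and Oas3, while 3.44% of all 32851 windows held them. GAS letters were present in 1 of the 6, that of Oas1a, and in 8.30% of all windows. The 120 bases before the start site are shown for the genes with ISRE letters, 5′ to 3′ on the strand of the gene, with the ISRE letters in capitals, because the position of the element differs between them. The start site is that of the promoter table, and the annotated gene begins up to 26 bases before it.
Oas1a, chr5:120907526-120907645, minus strand: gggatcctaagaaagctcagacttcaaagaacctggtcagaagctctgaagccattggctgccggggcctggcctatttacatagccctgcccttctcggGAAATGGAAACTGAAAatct
Oas1g, chr5:120887614-120887733, minus strand: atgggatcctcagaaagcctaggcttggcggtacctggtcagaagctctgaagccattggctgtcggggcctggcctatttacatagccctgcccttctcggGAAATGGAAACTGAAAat
Oas1c, chr5:120812515-120812634, minus strand: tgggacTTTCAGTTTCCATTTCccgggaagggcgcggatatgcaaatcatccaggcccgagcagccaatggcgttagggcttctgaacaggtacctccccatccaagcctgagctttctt
Oas3, chr5:120777660-120777779, minus strand: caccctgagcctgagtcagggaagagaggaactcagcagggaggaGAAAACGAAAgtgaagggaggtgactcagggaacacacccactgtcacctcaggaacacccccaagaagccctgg
Oas1a and Oas1g held overlapping ISRE matches within the same run of 16 bases, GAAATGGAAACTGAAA, which began 20 bases before the start of Oas1a and 18 bases before that of Oas1g. The window of Oas1c held the same 16 bases on the other strand, at chr5:120812613-120812628. Read in the direction of Oas1b, that run began 22 bases before the annotated start of Oas1b. The run was found in 7 of the 32851 windows, those of Oas1a, Oas1c, Oas1g, Apol9a and Apol9b. A match shows letters only and not a bound site.

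**Figure D1:**
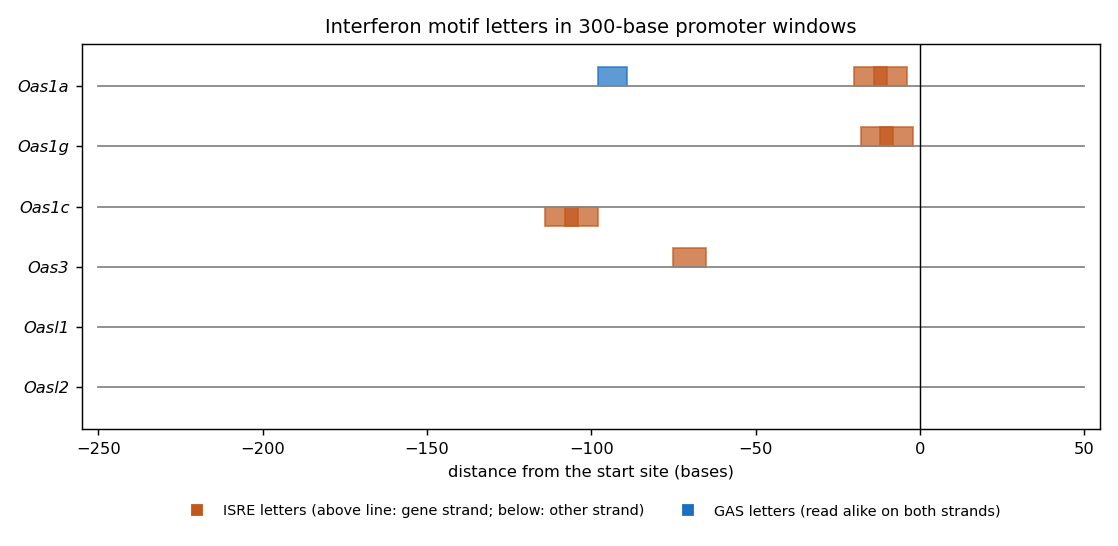
Positions of ISRE letters (orange) and GAS letters (blue) in the promoter windows of the 6 members that have one, with the distance from the start site in bases on the horizontal axis. The ISRE letters lie within 20 bases of the start in Oas1a and Oas1g, 75 bases before it in Oas3 and on the other strand in Oas1c, and none lie in the windows of Oasl1 and Oasl2.

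Each probe on the array is a 60-base oligonucleotide, and genes with more than 1 probe were read at different places of the transcript. Probes further inside the transcript are shown for the genes whose results turn on the place that was read, and for Oas1g, whose probe separates it from Oas1a. Positions are those of mm9 in the array annotation.
Oas1g, chr5:121332000-121332059, minus strand: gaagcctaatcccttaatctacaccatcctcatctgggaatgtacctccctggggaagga
Oas1b, chr5:121267702-121267761, plus strand: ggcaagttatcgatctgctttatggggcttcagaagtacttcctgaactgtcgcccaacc
Oas1c, chr5:121255554-121257972, minus strand: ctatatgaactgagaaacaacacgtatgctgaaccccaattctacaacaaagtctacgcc
Oas2, chr5:121184997-121185056, minus strand: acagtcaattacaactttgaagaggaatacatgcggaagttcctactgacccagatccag
The Oas1c probe covers 2419 bases of the genome with 60 bases of sequence, so it crosses an intron. The longest run of bases shared by probes of different family genes was 14, between Oas1f and Oas1a, over 146 pairs of probes. The array annotation assigns the Oas1a probe to transcripts of both Oas1a and Oas1g, and its signal could not be divided between them. The array annotation was matched by its main accession to a RefSeq gene for 10 of the 13 probes, and the 3 Oas1b probes were named as the array names them. The brightest Oas1b probe had no accession that matched a RefSeq gene. The other Oas1b probes carried an Oas1b accession among their further ones.

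The 3 arrays shared 1 slide and 1 scan, and neither separated the groups. The 75th percentile of intensity on the LPS, LOC1 and LOC3 arrays was 544, 504 and 508, and between 47.8% and 51.9% of probes were well above background. From probes printed 10 times on each array, the technical SD of a log2 difference was 0.057 between LOC1 and LPS and 0.064 between LOC3 and LPS. For dim probes, with a mean more than 2-fold under the 75th percentile, these SDs were 0.28 and 0.31. This SD covers the spots and leaves out the spread between cultures. All 9 macrophage markers were well above background on every array, with a summed intensity between 409832 and 509165, lowest with LOC1 and highest with LPS. Of the markers of other cells, 3 of 4 T cell genes and 3 of 3 fibroblast genes were well above background on every array, with summed intensities of 1217 to 1362 and of 90.0 to 125. At most 1 of 3 B cell, 1 of 4 epithelial and 2 of 4 neutrophil genes were well above background on any array. The part of these markers in the OAS values was not tested. All 13 OAS probes were well above background on all 3 arrays and none was saturated.

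After LOC1 or LOC3, the brightest probes of the OAS genes read from near the LPS level to well under 2-fold above it. Oas2, Oas1g, Oas1a, Oas3 and Oasl2 had the larger differences, between 0.39 and 0.68 on the log2 scale with LOC1 and between 0.35 and 0.62 with LOC3. Differences for Oasl1 and Oas1c were smaller, and the brightest probe of Oas1b hardly differed. No member reached 2-fold in either direction with LOC1 or with LOC3. Of the 20025 genes tested with LOC1, 2.49% were past 2-fold on the higher side and 3.88% on the lower side. With LOC3 these shares were 3.01% and 3.27%, of 19807 genes. Differences above 2 technical SD were found for 7 of the 8 members with each strain, all of them higher, and Oas1b was the exception. By this measure the calls of Oasl1, Oas1c and Oas1b depended on the processing, as given in the last section. Among all genes, 27.8% were higher and 25.1% lower by that measure with LOC1, and 28.1% higher and 20.5% lower with LOC3. The median difference of the members was 0.41 with LOC1 and 0.36 with LOC3, and that of all genes was -0.0012 and 0.029. Both comparisons use the same LPS array, so they are not independent of each other.

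**Figure D2:**
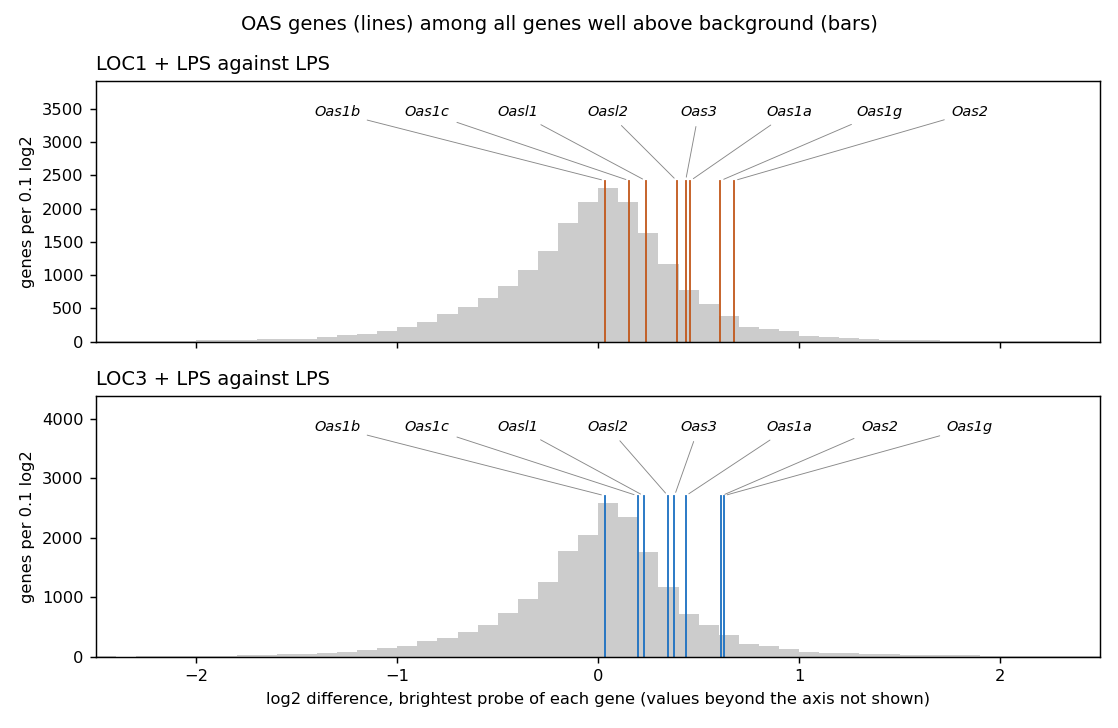
Log2 difference from the LPS array for the brightest probe of every gene well above background (grey bars, number of genes per 0.1 log2) and for the 8 OAS genes (vertical lines), with LOC1 above and LOC3 below. The lines lie between 0.034 and 0.68 with LOC1 and between 0.033 and 0.62 with LOC3, inside the spread of all genes.

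Oas1a and Oas1g encode the small synthetases. The Oas1g probe gave an intensity of 4014 on the LPS array, 5670 on the LOC1 array and 5772 on the LOC3 array. Both treated arrays were thus above the LPS array and close to each other. Its log2 difference from LPS was 0.61 for LOC1 and 0.62 for LOC3. For Oas1a, whose probe also reads Oas1g, the intensity was 80499 with LPS, 102503 after LOC1 and 101601 after LOC3. Its log2 differences of 0.46 and 0.44 were also above the spot noise. With LOC1, 7.08% of all genes had a difference as high as that of Oas1g or higher, and 11.6% one as high as that of Oas1a.

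Oas2 and Oas3 encode the larger synthetases, built of repeated OAS units. The brighter Oas2 probe, which starts at transcript base 3896 (chr5:121180343-121180402), read 15795 on the LPS array, 23388 on the LOC1 array and 22549 on the LOC3 array. Its log2 difference from LPS was 0.68 for LOC1, or 1.60-fold, and 0.61 for LOC3, or 1.53-fold. Oas2 had the largest LOC1 difference of the family, and 5.72% of all genes had one as high or higher. The Oas2 probe shown above, which starts at base 2016, had 80.2, 111 and 102 in the same order. Its differences of 0.58 and 0.45 pointed the same way, and with the technical SD of dim probes the LOC1 value lay just past 2 SD and the LOC3 value within it. The Oas3 probe (chr5:121203598-121203657) read 1861 on the LPS array, 2332 on the LOC1 array and 2259 on the LOC3 array. Its log2 differences were 0.44 and 0.38.

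Oasl1, which holds back translation of the interferon regulator Irf7, and Oasl2, an active synthetase with ubiquitin-like domains, had smaller differences than Oas2. The brightest Oasl1 probe (chr5:115387861-115387920) read 56955 on the LPS array, 62182 on the LOC1 array and 62179 on the LOC3 array. The other Oasl1 probe (chr5:115387556-115387615) had 17235, 19063 and 18760. The Oasl1 probes gave nearly the same log2 differences, 0.24 and 0.26 with LOC1 and 0.23 and 0.22 with LOC3. For Oasl2 (chr5:115362168-115362227) the arrays read 18551, 22538 and 22012 in the same order, with log2 differences of 0.39 and 0.35.

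Oas1b, the gene of natural resistance to flaviviruses in mice, was read by 3 probes that did not give the same difference. The brightest (chr5:121274109-121274168) read 17794 on the LPS array, 16878 on the LOC1 array and 16988 on the LOC3 array, with log2 differences of 0.034 and 0.033. That probe, the one without a RefSeq match, stood for Oas1b in the counts of genes. It was within the spot noise with both strains, and under quantile normalization its difference was -0.014 with LOC1 and -0.063 with LOC3. The next probe toward the start of the transcript (chr5:121273890-121273949) had 1628, 1770 and 1694, and its differences of 0.23 and 0.16 were above 2 technical SD. The probe shown above, still further toward the start, had 237, 214 and 198, with differences of -0.036 and -0.16 that lay within the noise of dim probes. Oas1c was read by 2 probes. The brighter one (chr5:121250271-121250330) had an intensity of 1068, 1102 and 1141, with log2 differences of 0.16 and 0.20. The intron-crossing Oas1c probe had 97.4, 85.1 and 86.1, with differences of -0.086 and -0.079, within the noise of dim probes. Of the Oas1c probes, the brighter one alone differed by over 2 technical SD.

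**Figure D3:**
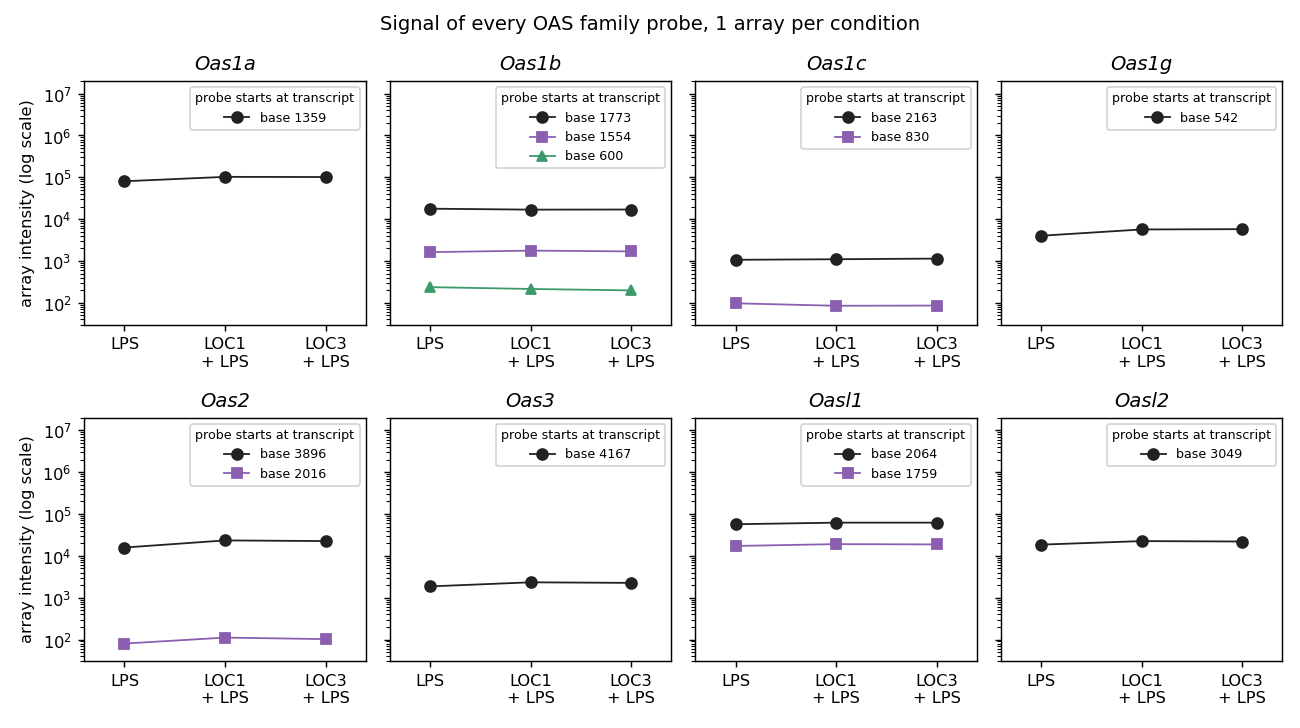
Array intensity (log scale) of all 13 OAS family probes on the 3 arrays, 1 panel per gene, with 1 line per probe named by the transcript base where it starts. The lines of Oas1a, Oas1g, Oas2, Oas3 and Oasl2 step up from LPS to LOC1 and stay level to LOC3, and those of the brightest Oas1b probe and of Oas1c are nearly flat.

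In the order of the LOC1 differences, Oas2 came first and was followed by Oas1g, Oas1a, Oas3, Oasl2, Oasl1, Oas1c and Oas1b. None of the 7 neighbours in this order were apart by more than 2 technical SD, and the same was true of the LOC3 order, in which Oas1g stood just above Oas2. Genes further apart in the order did differ by that measure, in 20 of the 28 pairs with LOC1 and in 18 of the 28 with LOC3. Oas2 exceeded Oasl1 by 0.44 with LOC1 and by 0.39 with LOC3. Counted over all 13 probes, 10 were higher by over 2 technical SD with LOC1 and 9 with LOC3, and none was lower. Over all single probes well above background on either array, 25.3% were higher and 25.5% lower by that measure with LOC1, and 25.2% were higher and 21.1% lower with LOC3.

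**Figure D4:**
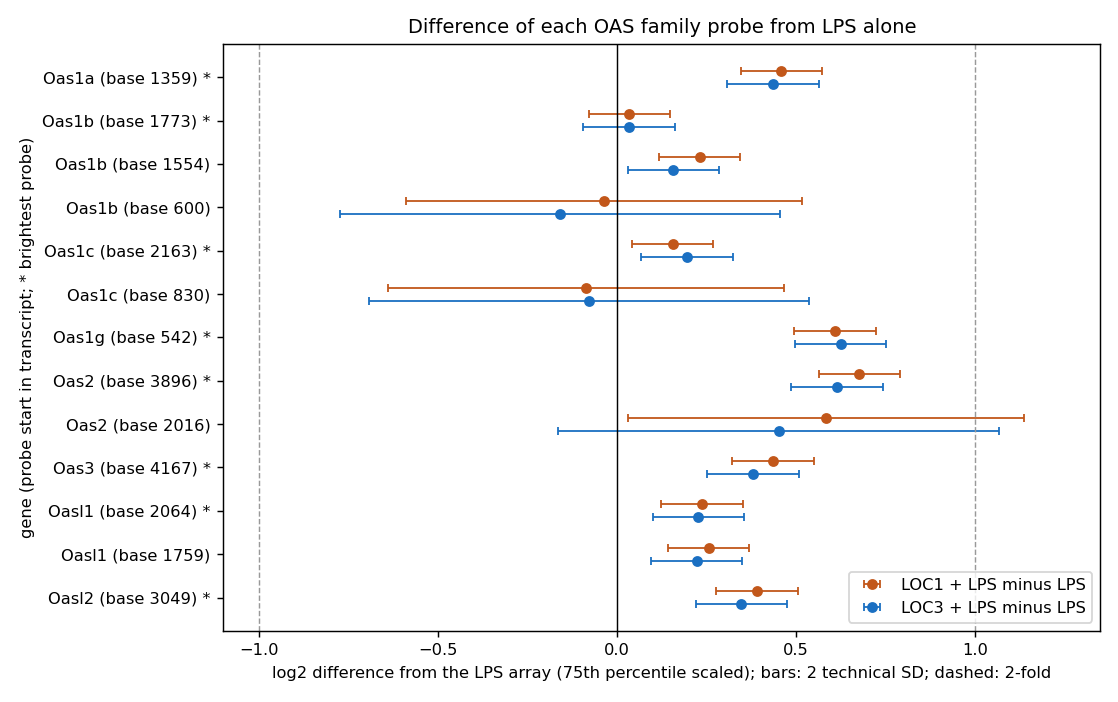
Log2 difference from the LPS array for each OAS family probe with LOC1 (orange) and LOC3 (blue), with bars of 2 technical SD and dashed lines at 2-fold. All points lie between the dashed lines, and the wide bars belong to the dim probes of Oas1b, Oas1c and Oas2.

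LOC1 and LOC3 were compared directly. The log2 difference between LOC1 and LOC3 was between -0.041 for Oas1c and 0.063 for Oas2 over the brightest probes, and its median was 0.016. None of the 8 members reached 2-fold, where 0.809% of all genes were past 2-fold on the higher side and 1.9% on the lower side with LOC1. No member and none of the 13 probes differed by more than 2 technical SD between the strains, where 7.42% of all genes were higher and 10.6% lower by that measure, and 7.26% and 9.73% of single probes. For Oas2 the interval of 2 technical SD around 0.063 includes 0, and a difference between cultures of that size could not be seen with 1 array per group.

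In the deposited log2 ratios to unchallenged macrophages, all 8 members had a probe listed as at least 2-fold higher with LPS alone. Of all gene names on the array, 9.7% were listed as higher and 8.66% as lower. Of the genes well above background on the LPS array, 14.4% were listed as higher and 11% as lower. The brightest probe was listed for 5 of the 8 members, while those of Oas1b, Oas1c and Oasl1 were not listed. The table lists only probes past 2-fold in at least 1 group, and why a probe is left out was not tested. The deposited ratio of Oasl1 was 9.59, or 772-fold, and the signal it implies for unchallenged macrophages, 22.3, was just above 16.3, the dimmest signal that counted as well above background on that array. Oasl2 followed with 6.78, or 110-fold. The Oasl genes thus had the largest listed ratios of the family.

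Among the synthetases, the brighter Oas2 probe had a deposited ratio of 4.33, or 20.1-fold. The dim Oas2 probe had 4.62, and the unchallenged signal it implies fell below that limit, which leaves at least 4.91-fold. The listed Oas1b probe had 3.61, or 12.2-fold, and Oas3 had 3.53, or 11.5-fold. Oas1a had 2.53, or 5.78-fold, and Oas1g 2.46, or 5.50-fold. Oas1c was listed only for its dim probe, at 1.76, or 3.39-fold. The order under LPS was not that of the differences with the strains, since Oasl1 had the highest ratio to unchallenged cells and one of the lowest differences from LPS. With the strains, the brighter Oas2 probe was listed at 5.04 after LOC1 and 4.98 after LOC3. Higher ratios with LOC1 and with LOC3 than with LPS were listed for 8 of the 9 listed probes, and Oas1c was the exception. The same held for 60.6% with LOC1 and 63.3% with LOC3 of all probes listed as higher with LPS and listed in both columns. The deposited LOC1 column is offset from the LPS column by -0.036 and the LOC3 column by -0.041 in the reference they imply, which raises each deposited difference by that much.

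**Figure D5:**
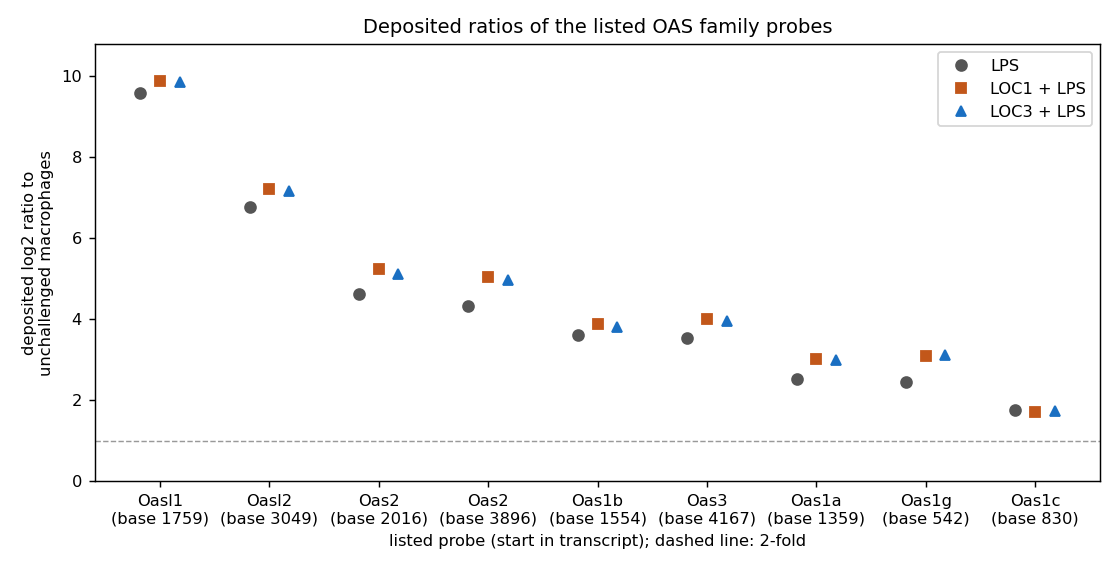
Deposited log2 ratio to unchallenged macrophages for the 9 listed OAS probes, named by gene and transcript base, with LPS (grey circles), LOC1 (orange squares) and LOC3 (blue triangles). The ratios with LPS run from 9.59 for Oasl1 to 1.76 for Oas1c, and the dashed line marks 2-fold.

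The other genes of the 2-5A pathway did not share a direction. Abce1, a protein that recycles ribosomes, read 8241 on the LPS array, 5909 on the LOC1 array and 5721 on the LOC3 array, with log2 differences of -0.37 and -0.43. Its other probe, which was dim, read 107, 59.3 and 38.4, with -0.74 and -1.38. Pde12, a phosphodiesterase that degrades 2-5A, had differences of 0.024 and 0.021. Dxo, an enzyme that removes defective caps from RNA, had 0.39 and 0.47. Akap7, which can degrade 2-5A in the nucleus, had 3 dim probes, with 0.79 and 0.75 on the one brightest over the 3 arrays. Another had 0.31 and 0.28, within 2 technical SD. The last had -0.44, within 2 technical SD, and -0.81, past it. On the LPS array that last probe read 188 and the one counted as brightest read 147. Of these 4 genes, 2 were higher and 1 was lower by over 2 technical SD with each strain, none reached 2-fold on its brightest probe, and the median difference was 0.21 for LOC1 and 0.25 for LOC3. By that measure 27.8% of all genes were higher and 25.1% lower with LOC1, and 28.1% were higher and 20.5% lower with LOC3.

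Of the further Oas1 copies on the array, Oas1f read 35473 on the LPS array, 44187 on the LOC1 array and 45960 on the LOC3 array, with log2 differences of 0.43 and 0.47 and a deposited ratio with LPS of 2.41. Oas1d had 271, 377 and 466, with differences of 0.59 and 0.88. Oas1e had 114, 128 and 141, with differences of 0.28 and 0.41, and Oas1h was not well above background on any array. Of the 3 measured copies, 2 were higher by over 2 technical SD with each strain and none was lower. Over all genes, 27.8% were higher and 25.1% lower by that measure with LOC1, and 28.1% and 20.5% with LOC3. Oas1d was also lower with LOC1 than with LOC3 by over 2 technical SD, at -0.29, where 7.42% of all genes were higher and 10.6% lower. Oas1d was classed as bright by its mean over the arrays, close to the limit on the LPS array. The technical SD of dim probes in this comparison was 0.30, about the size of its difference. Oas1e and Oas1f did not differ between the strains by over 2 technical SD.

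Upstream of the family, Ifnb1, which encodes interferon-β, read 1251 on the LPS array, 29911 on the LOC1 array and 18123 on the LOC3 array. Its log2 differences of 4.69 and 3.96 were far above those of any OAS gene. Ifnar1, a chain of the interferon receptor, had -0.66 and -0.75, and Ifnar2, the other chain, 0.19 and 0.17. Of the ISGF3 genes, Stat2 had 0.17 and 0.25 and Irf9 had -0.059 and 0.011, which for Irf9 lay within 2 technical SD. The other Irf9 probe had -0.17 and -0.21, lower by over 2 technical SD with each strain. Irf7, which drives further interferon genes, had 0.46 and 0.62. Of the 9 genes counted for this input, 1 was at least 2-fold higher with each strain, 5 were higher by over 2 technical SD with each strain, and 2 were lower with LOC1 and 1 with LOC3. Their median difference was 0.17 with LOC1 and 0.17 with LOC3. Of all genes, 2.49% with LOC1 and 3.01% with LOC3 were at least 2-fold higher. By over 2 technical SD, 27.8% were higher and 25.1% lower with LOC1, and 28.1% were higher and 20.5% lower with LOC3.

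Other proteins that bind double-stranded RNA or act with its sensors spread more widely than the OAS genes. Tlr3, the endosomal sensor, had log2 differences of 1.02 and 0.99, and Zbp1, a sensor of left-handed nucleic acid, had 0.98 and 0.998. Ifih1, a cytosolic sensor of long double-stranded RNA, had 0.42 and 0.35 on its brightest probe, close to the median of the OAS genes. The other Ifih1 probe, which was dim, had -0.41 and -0.55, within 2 technical SD. Eif2ak2, the kinase that stops translation on double-stranded RNA, had -0.17 and -0.11, and Mavs, the adaptor of the cytosolic sensors, had -0.16 and -0.18. Of the 8 genes, 5 were higher by over 2 technical SD with each strain and 2 were lower with LOC1 and 1 with LOC3, with medians of 0.17 and 0.22. The shares of all genes by that measure were 27.8% higher and 25.1% lower with LOC1, and 28.1% higher and 20.5% lower with LOC3.

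The genes nearest to the OAS family in their values were sought among 3003 genes well above background on all arrays and listed with LPS on their brightest probe. The distance was taken from the family medians of 3.53 for the deposited LPS ratio, over the 5 members with a listed brightest probe, and of 0.41 and 0.36 for the differences with the strains. Mndal, an interferon-inducible gene of the Ifi200 group, was nearest at a distance of 0.038, with 3.50, 0.40 and 0.39. Zufsp, a deubiquitinase, was next at 0.075 and was followed by Abtb2 at 0.094 and Sh3bp4 at 0.15. The fifth, at 0.16, was a transcript that the array names only by its position. These distances rest on 3 values that share the LPS array.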

How the data were processed

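RNA from RAW264.7 macrophages with LPS, LOC1 and LPS, or LOC3 and LPS was measured on one-colour Agilent arrays, 1 per group, from 200 ng of RNA by the methods. The deposited intensity of a spot had been background-corrected by the authors in Feature Extraction 12.0.3.1, per the file headers, and had not been scaled between arrays. They also deposited log2 ratios to unchallenged macrophages for 13135 probes, made with GeneSpring by the methods. The reference implied by the columns differed by over 0.001 for 4 of the 8425 probes listed in more than 1 column.

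Outlier spots were left out, 118 to 135 per array. Spots of a probe were averaged, and the log2 of the 75th percentile over all remaining spots was subtracted on each array. Signals that did not count as well above background were lifted to the dimmest one that did. The brightest probe stood for a gene, and a gene was counted where either of the arrays compared had it well above background. In a first run the percentile and detection were set over probe means, and they were moved to spots, as in the file headers, after its values had been seen. The t-test of the methods needs more than 1 array per group and was not run, and the number of arrays limits the precision. The members and lists were chosen with earlier results of these data known, and all of their genes could be named, apart from items that are not reported here and were left out of the lists. The procedure was tested on simulated data.

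Python 3.11.15, numpy 2.4.6, pandas 2.3.3 and matplotlib 3.10.9 were used, with limma 3.58.1 in R 4.3.3 for normexp with an offset of 50. Alternatives were other scalings, normexp, the deposited ratios, other filters and probe rules, outlier spots kept and a 3-fold threshold. Promoters and gene positions are those of RefSeq on GRCm38.p6, and probe positions are those of mm9.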

Additional observations from a re-analysis of the deposited data

How the results depend on the processing

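No paired analysis was possible because each group had 1 array. The count of members at least 2-fold higher or lower stayed at 0 in the 3 comparisons between arrays under every alternative run. With the median of each array as the scale, the members' median difference was 0.63 with LOC1 and 0.55 with LOC3, and the median of all genes moved to 0.22 in both. Relative to all genes it was 0.41 and 0.33, as with the 75th percentile. With no filter and no floor, the median of all genes with LOC3 moved to 0.17, and the members' median relative to it was 0.19. The members' median itself was 0.34 and 0.29 under quantile normalization, and 0.26 and 0.23 with each probe counted by itself. Oasl1 fell to 0.10 with LOC1 and 0.068 with LOC3 under quantile normalization. Oas1c fell to 0.035 and 0.058 with the mean of the detected probes. None of these was past 2 technical SD of the gene's brightest probe. With the deposited ratios, the difference of Oas1c turned to -0.050 with LOC1 and -0.038 with LOC3, because those ratios list only its dim probe, and both lie within the noise of dim probes. The difference of the brightest Oas1b probe changed sign under quantile normalization and with the percentile taken over probes well above background on the 3 arrays. It stayed within 2 technical SD in both. With the median of each array as the scale it was 0.25 with LOC1 and 0.22 with LOC3, past 2 technical SD, where the median of all genes had moved to 0.22. The count of members listed as higher with LPS was 5 with the brightest probe only. Over probe means, the setting of the first run, the medians were 0.45 and 0.40. The share of all genes at least 2-fold higher was then 3.69% with LOC1 and 3.88% with LOC3. That share with LOC1 against LOC3 was 1.67%. The move from probe means to spots was made after the values of the first run had been seen. Of the values of single members under these alternatives, 206 moved by less than 1 technical SD of the gene's brightest probe and 34 by more. Signal over background limits the dim probes of Oas1b, Oas1c and Oas2.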
